A study of Mus musculus with 99 samples.

Results

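Mitochondrial genome transcripts are the RNAs copied from the circular DNA that every mitochondrion carries. The members were all genes of the GENCODE mouse annotation whose symbol starts with mt-, and 37 of the 55335 gene identifiers in the count tables met that rule. They comprise 13 protein genes, 2 rRNA genes and 22 tRNA genes. The samples were tissue from 5 brain regions of wildtype C57BL/6 mice sampled as juveniles: the ventral tegmental area (VTA), ventrobasal thalamus (VBT), somatosensory cortex (S1), prelimbic cortex (PrL) and nucleus accumbens (NAc). The dams of the exposed mice drank water with fentanyl, an opioid agonist, at 10 µg/ml from embryonic day 0 until weaning, and the dams of the control mice drank water. Females and males of both treatments in each region made 20 groups, with 5 libraries in each except S1 males of water dams, which had 4. The question of the study is what exposure around birth does to gene expression in these regions, in females and in males.

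Each strand of mitochondrial DNA is transcribed as one long RNA, from which the tRNAs are cut out and so release the mRNAs and rRNAs between them. The protein members encode subunits of oxidative phosphorylation: mt-Nd1 to mt-Nd6 and mt-Nd4l belong to complex I, mt-Cytb to complex III, mt-Co1 to mt-Co3 to complex IV, and mt-Atp6 and mt-Atp8 to complex V. The other subunits of these complexes are encoded in the nucleus, so each complex except complex II is built from both genomes. Pieces of mitochondrial DNA have also been copied into nuclear chromosomes, and a read from such a stretch can align to both places.

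The libraries held between 23032078 and 52069639 counts over genes after 1 was left out, VTA male water 3, which had counts for only 6333 genes. Marker genes of VTA, VBT, cortex and NAc were higher in every library of their own tissue than in any library elsewhere. The 6 VTA markers summed to between 335 and 1733 CPM (counts per 1000000 counts of the library over genes) in VTA libraries and to at most 69.3 elsewhere. The labels name no litters, so p-values measure the spread between libraries of a group. They also do not say whether the 5 regions came from the same mice, and the tests between regions treat the libraries as independent. In bulk tissue, fewer cells of a type and less RNA per cell cannot be told apart.

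Some members share sequences with nuclear copies. Members were aligned to the other annotated transcripts of the mouse. Matches on 1 chromosome that holds none of the copies named here were left out, so the counts of copies do not cover it. Among the matches kept, 5 members had a copy that matched at least 90% of their length at 99% identity or more. All 5 copies lie on chromosome 1 (GRCm38), on the minus strand, in the order of the mitochondrial genes. The copy Gm10925 at chr1:24613974-24614651 matched 678 bases of mt-Atp6 at 100% identity. Gm28661 at chr1:24614885-24615565 matched 681 bases of mt-Co2, and Gm28437 at chr1:24613189-24613971 matched 783 bases of mt-Co3, both at 100%. Gm10222 matched 294 bases of mt-Nd4l at 100%, and Gm28438 matched 345 bases of mt-Nd3 at 99.7%. The same stretch of chromosome 1 also held partial copies: Gm29216 matched 483 bases (31.3%) of mt-Co1, and Gm28439 matched 876 bases (63.6%) of mt-Nd4. Less similar copies of full length were found elsewhere, and Gm13340 on chromosome 2 matched all 1545 bases of mt-Co1 at 97.6% identity. Below, the first 60 bases of mt-Co2 (chrM:7013-7072, plus strand) show a stretch with no base that tells member and copy apart, and the pairs show the only base that differs from the copy in mt-Nd3 and in the aligned part of mt-Co1. Capitals mark the differing base, written as T3C for mt-Nd3 and A1066T for mt-Co1, with the member's base first and the position counted from 1 at the member's first base.
mt-Co2 and Gm28661: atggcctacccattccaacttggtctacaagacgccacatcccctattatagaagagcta
mt-Nd3 (chrM:9459-9481, plus strand): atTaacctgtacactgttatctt
Gm28438 (chr1:24613097-24613119, minus strand): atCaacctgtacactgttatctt
mt-Co1 (chrM:6390-6413, plus strand): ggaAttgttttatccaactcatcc
Gm29216 (chr1:24616165-24616188, minus strand): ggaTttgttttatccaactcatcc

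mt-Atp8 had no annotated copy among the matches kept, but it lies between mt-Co2 and mt-Atp6. Its last 43 bases are also the first 43 of mt-Atp6, in another reading frame, and are printed first below because a read inside them cannot be given to one gene (chrM:7927-7969, plus strand). The distance from mt-Co2 to mt-Atp6 is 230 bases in the mitochondrial genome and 233 bases between their copies on chromosome 1. Whether that stretch of chromosome 1 resembles mt-Atp8 was not analysed here. The other sequences are the 3 tRNA members with the highest mean level, those for proline (mt-Tp), tryptophan (mt-Tw) and glutamine (mt-Tq), which are 67, 67 and 71 bases long.
mt-Atp8 and mt-Atp6 overlap: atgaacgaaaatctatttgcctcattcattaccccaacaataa
mt-Tp (chrM:15356-15422, minus strand): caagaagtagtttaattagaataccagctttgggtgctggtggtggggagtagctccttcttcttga
mt-Tw (chrM:4950-5016, plus strand): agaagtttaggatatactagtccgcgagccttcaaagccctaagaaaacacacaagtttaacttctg
mt-Tq (chrM:3772-3842, minus strand): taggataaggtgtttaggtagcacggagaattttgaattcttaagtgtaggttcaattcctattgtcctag

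The levels of the members were first compared within the mitochondrial genome, per kilobase of exon. Protein members without a near-identical copy were even across libraries, and all of them except mt-Nd6 were abundant. The highest median over the 98 libraries was that of mt-Co1, the catalytic subunit of complex IV, at 10093 CPM per kb. It was followed by mt-Cytb at 5650, mt-Nd1 at 4680, mt-Nd2 at 2933, mt-Nd4 at 2467 and mt-Nd5 at 2362 CPM per kb. mt-Nd6, the only protein gene read from the other strand, had a median of 161 CPM per kb. The rRNA members mt-Rnr1 (small subunit) and mt-Rnr2 (large subunit) had medians of 2218 and 2642 CPM per kb, within the range of the mRNAs. How fully the library preparation captured rRNAs was not measured, so these counts need not compare as abundances. On the CPM scale, mt-Co1 ranged from 10416 to 21252 with a median of 15594 across the 98 libraries.

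**Figure D1:**
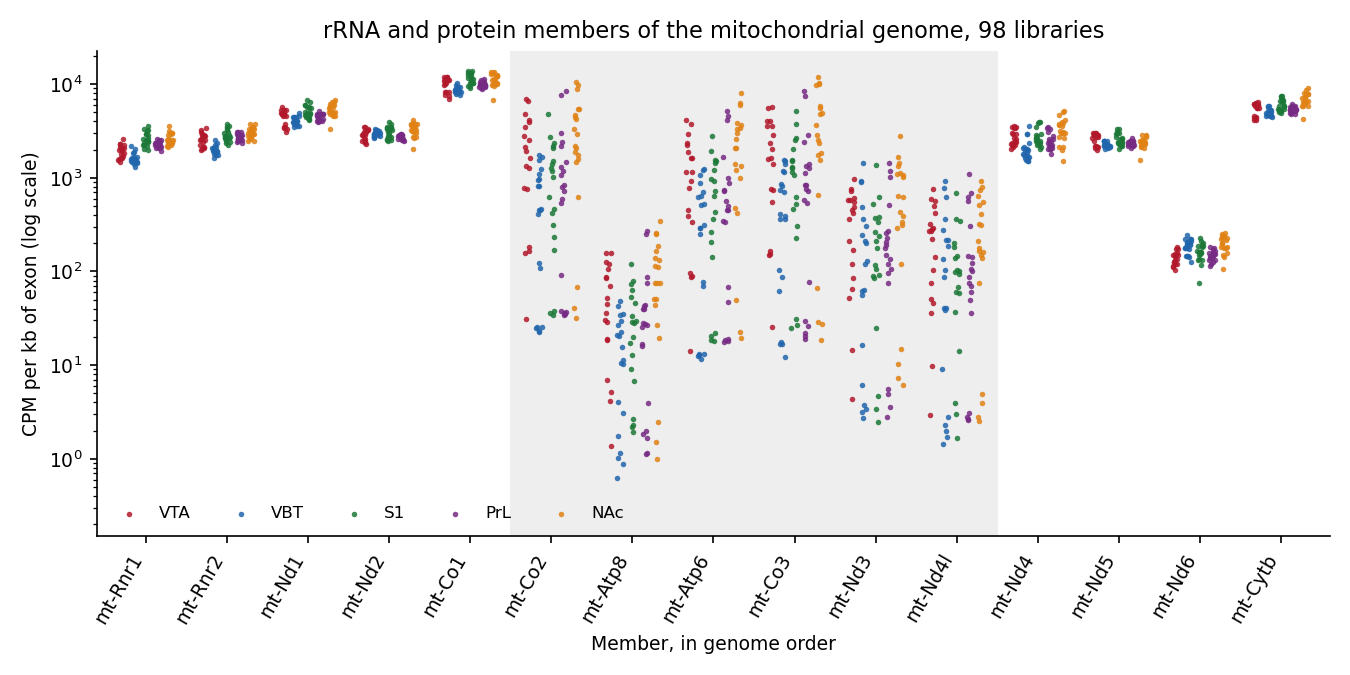
Level of the 15 rRNA and protein members in 98 libraries, in genome order, as CPM per kb of exon on a log scale. Each point is a library, coloured by region, and the grey band holds the 5 members with a near-identical nuclear copy and mt-Atp8. Points inside the band spread over factors of 467 to 1132, and those outside over factors of 2.02 to 3.44 for the proteins.

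The 5 members with a near-identical copy varied far more than their neighbours. Their highest library exceeded their lowest by 467 to 1132 times, with coefficients of variation from 112% to 130% over the 98 libraries. mt-Atp8 behaved likewise, with a factor of 555 and a coefficient of 126%. The other 7 protein members spanned factors of 2.02 to 3.44 with coefficients of 12.9% to 29.1%, and these include mt-Co1 and mt-Nd4, whose copies at 99% identity or more cover only part of the gene. This split by copies was drawn after the values were seen and was not tested. mt-Co2 ran from 15.5 to 7213 CPM with a median of 806, mt-Co3 from 9.63 to 9338 with a median of 883, and mt-Atp6 from 8.02 to 5420 with a median of 460. mt-Nd3 ran from 0.857 to 970 CPM (median 73.8), mt-Nd4l from 0.423 to 323 (median 40.6) and mt-Atp8 from 0.126 to 70.2 (median 5.89). mt-Co1, encoded just before mt-Co2, did not follow these swings.

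In 15 of the 98 libraries mt-Co2, mt-Co3 and mt-Atp6 were all under 50 CPM, while mt-Co1 was at least 12413 CPM in each. These libraries came from 9 of the 20 groups and from every region: 1 from VTA, 5 from VBT, 2 from S1, 5 from PrL and 2 from NAc. Of the 50 fentanyl libraries 10 were among them, and of the 48 water libraries 5. In 8 libraries the copy Gm28661 stood at 100 CPM or more, and in all 8 its mitochondrial counterpart mt-Co2 was under 50 CPM. VTA female fentanyl 1 had 21.2 CPM of mt-Co2, 309 CPM of Gm28661 and 17173 CPM of mt-Co1. NAc female water 3 had 27.6 CPM of mt-Co2, 679 CPM of Gm28661, 984 CPM of Gm28437 and 1037 CPM of Gm10925. At the other end, NAc male fentanyl 3 had 7213 CPM of mt-Co2, 7888 of mt-Co3 and 5420 of mt-Atp6 beside 17.8 CPM of Gm28661. High Gm28661 was thus seen only where mt-Co2 was low, but of the 17 libraries with mt-Co2 under 50 CPM 9 had no high Gm28661. The counts of the copies did not make up the difference: with them added, mt-Co2 still ran from 24.2 to 7230 CPM (a factor of 299), mt-Co3 from 25.3 to 9364 (371) and mt-Atp6 from 21.7 to 5448 (251).

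The count tables also record reads that aligned to more than 1 place and were given to no gene. They made up 3.03% to 6.04% of a library's reads, with a median of 5.16%. Libraries with more such reads had a smaller summed share of the 5 copied members and mt-Atp8. In VTA Pearson's r was -0.981 and Spearman's rho -0.974 over 19 libraries (two-sided permutation tests, adjusted p = 2e-05 and 3e-05 over 6 relations, raw p = 1e-05, the smallest they can give). In PrL r was -0.957 and rho -0.767 (n = 20, permutation tests, adjusted p = 2e-05 and 0.00026). In NAc r was -0.853 and rho -0.750 (n = 20, permutation tests, adjusted p = 3e-05 and 0.000435). In S1 r was -0.777 and rho -0.681 (n = 19, permutation tests, adjusted p = 0.000192 and 0.0023). In VBT r was -0.613 and rho -0.595 (n = 20, permutation tests, adjusted p = 0.00403 and 0.00671). Each r was also computed without the 2 libraries whose summed share of these members lay farthest from the median of the region. It was then -0.963 in VTA, -0.803 in PrL, -0.756 in NAc, -0.486 in S1 and -0.404 in VBT, and in S1 and VBT the relation was much weaker. Both quantities come from the same reads. The levels of the copied members are therefore given below as uncertain, and the part of the reads aligned to more than 1 place in their fold changes was not tested.

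**Figure D2:**
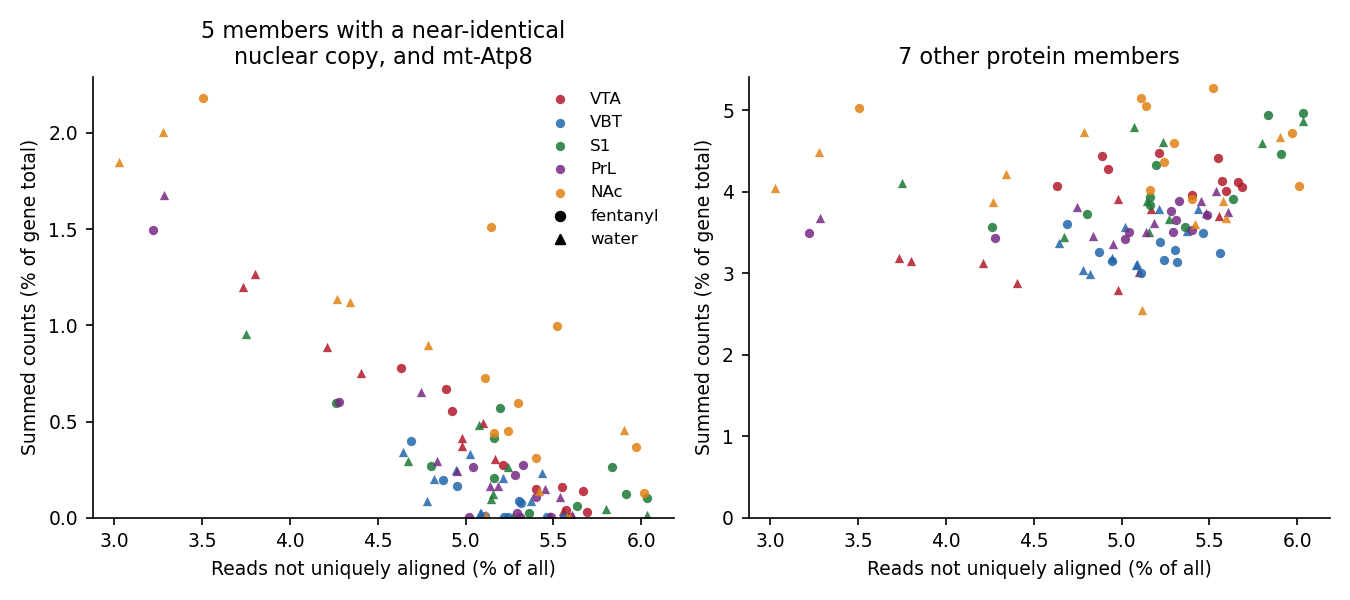
Summed counts of the copied members with mt-Atp8 (left) and of the other 7 protein members (right), as percent of counts over genes, against reads aligned to more than 1 place as percent of all reads. Each point is 1 of 98 libraries, with circles for fentanyl and triangles for water. On the left the highest points lie at the lowest shares of such reads, and within each region r runs from -0.981 to -0.613.

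Most tRNA members had few counts or none. Of the 22, 8 had no count in any of the 98 libraries: those for phenylalanine (mt-Tf), valine (mt-Tv), glycine (mt-Tg), arginine (mt-Tr), histidine (mt-Th), both for leucine (mt-Tl1 and mt-Tl2) and 1 of those for serine (mt-Ts2). In a single library a count of 0 allows up to 3 counts, or 0.0833 CPM when averaged over the libraries, and this limit covers counting error only. With no count in all 98 libraries together, the limit on the mean level is lower and was not computed. Another 4 had almost no counts, with 28 in all for mt-Tc, 10 for mt-Td, 3 for mt-Tn and 2 for mt-Tk. The other 10 were detected more widely, and mt-Tp had the highest median, 93.9 CPM per kb, followed by mt-Tw at 62.3 and mt-Tq at 55.4. On the CPM scale mt-Tp ran from 4.38 to 11.3 (median 6.29), mt-Tw from 1.69 to 6.99 (median 4.17) and mt-Tq from 1.39 to 9.42 (median 3.94). The files do not tell whether these reads came from mature tRNAs or from longer precursors. How fully the library preparation captured tRNAs was not measured, so few counts need not mean few molecules.

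Regions were then compared, averaging over sex and treatment. All 37 members together took 4.81% ± 0.557 of counts in VTA (SD, n = 19), 3.92% ± 0.363 in VBT (n = 20), 5.11% ± 0.650 in S1 (n = 19), 4.60% ± 0.480 in PrL (n = 20) and 5.80% ± 1.21 in NAc (n = 20). The 7 protein members without a near-identical copy took 4.30% ± 0.649 in NAc, 4.14% ± 0.529 in S1, 3.76% ± 0.558 in VTA, 3.63% ± 0.181 in PrL and 3.31% ± 0.246 in VBT. The rRNA members took 0.736% ± 0.0968 in NAc, 0.708% ± 0.112 in S1, 0.644% ± 0.0490 in PrL, 0.593% ± 0.0951 in VTA and 0.470% ± 0.0510 in VBT. These sums place S1 and NAc highest and VBT lowest for both kinds of RNA. The copied members and mt-Atp8 took 0.767% ± 0.681 in NAc and 0.136% ± 0.127 in VBT, with spreads nearly as large as the means.

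mt-Rnr1, the RNA of the small ribosomal subunit, differed between regions. Its lowest, median and highest CPM were 1886.7, 2403 and 3426 in S1, 2034, 2428 and 3407 in NAc, 1825, 2131 and 2482 in PrL, 1420.2, 1835 and 2480 in VTA, and 1249.7, 1497 and 2074 in VBT. On the log2 scale of edgeR's quasi-likelihood test (TMM scaling, Benjamini-Hochberg adjustment over 22326 genes), mt-Rnr1 was lower in VBT than in S1 by a difference of -0.65 (SE 0.05, adjusted p = 7.83e-20) and lower in VTA than in S1 by -0.58 (SE 0.05, adjusted p = 4.39e-17). S1 and NAc differed by 0.06 (SE 0.05, adjusted p = 0.321) and VTA and VBT by 0.07 (SE 0.05, adjusted p = 0.266), so neither pair was separated beyond its spread. mt-Rnr2 followed the same order at the bottom, and VTA exceeded VBT by 0.19 (SE 0.05, adjusted p = 0.000322).

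mt-Co1 gave a lowest, median and highest CPM of 14042, 17528 and 21252 in S1, 10416, 17922 and 20870.1 in NAc, 10673, 16802 and 18605 in VTA, 13595, 15218 and 17597 in PrL, and 11951, 13160.2 and 15738 in VBT. In the same edgeR fit VBT was below S1 by -0.34 (SE 0.05, adjusted p = 1.04e-08). S1 and NAc differed by 0.08 (SE 0.05, adjusted p = 0.204) and PrL and NAc by -0.10 (SE 0.05, adjusted p = 0.0867), so these neighbours were not separated. The scale mattered for VTA. Mean CPM of mt-Co1 was 15502 in VTA, above 15341 in PrL and 13417 in VBT, but after TMM scaling VTA was below PrL by -0.16 (SE 0.05, adjusted p = 0.00557) and differed from VBT by 0.01 (SE 0.05, adjusted p = 0.84). mt-Cytb was lower in VTA than in NAc by -0.42 (SE 0.05, adjusted p = 1.62e-12), with lowest, median and highest CPM of 4715, 6514 and 7303 in VTA and 4814, 7804 and 10279 in NAc. mt-Nd5 passed the test only in the 4 pairs with S1, where S1 was higher after TMM scaling: S1 minus NAc was 0.18, and VTA minus S1 was -0.13. On the CPM scale the mean was 4777 in S1, 4748 in VTA, 4371 in NAc, 4267 in PrL and 4109 in VBT, and the median of VTA (5021) was above that of S1 (4712). mt-Nd2 had means of 3417 in NAc, 3204 in S1, 3076 in VBT, 3037 in VTA and 2831 CPM in PrL, and after scaling VTA was below VBT by -0.20 (SE 0.05, adjusted p = 0.000223). The mRNAs thus shared no single order of regions.

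mt-Nd6, the subunit read from the other strand, had its highest medians in NAc and VBT. Its lowest, median and highest CPM were 55.4, 109 and 135 in NAc, 66.0, 97.2 and 128 in VBT, 39.2, 83.6 and 118 in S1, 58.6, 78.1 and 95.2 in PrL, and 53.6, 70.5 and 93.6 in VTA. VBT, the lowest region for mt-Co1 and the rRNAs, exceeded VTA in mt-Nd6 (VTA minus VBT -0.56, SE 0.08, adjusted p = 1.1e-08) and PrL (VBT minus PrL 0.34, SE 0.08, adjusted p = 0.000167). VBT and NAc differed by -0.02 (SE 0.08, adjusted p = 0.866). Its last 14 bases lie opposite those of mt-Nd5, and whether the counting used strand is not given in the sources used here.

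**Figure D3:**
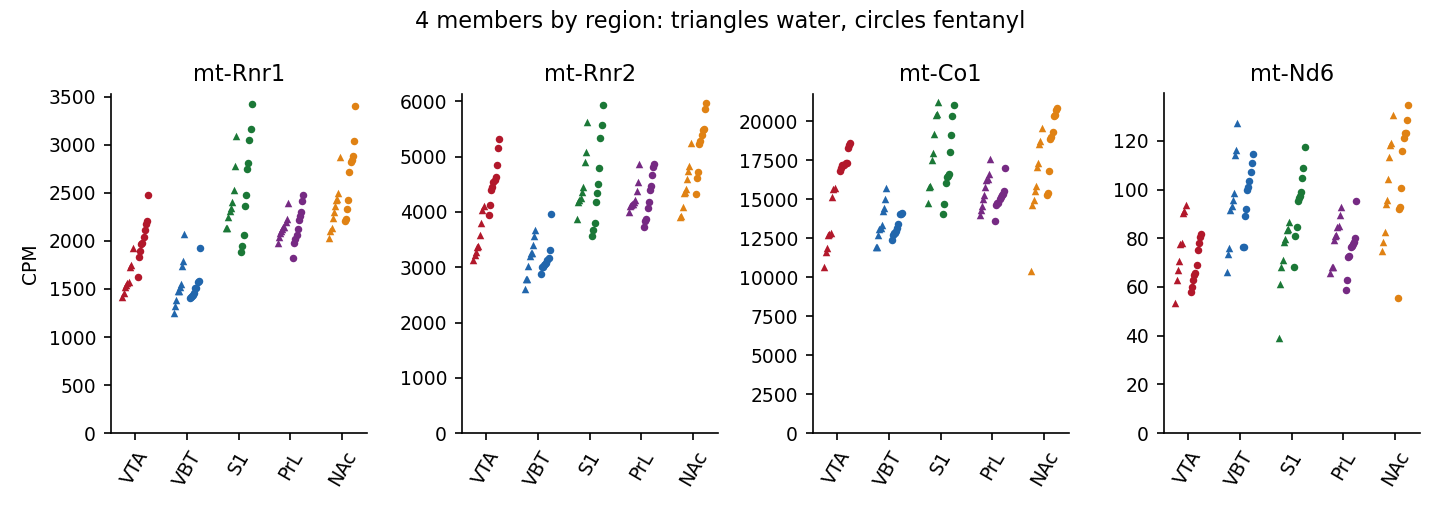
CPM of mt-Rnr1, mt-Rnr2, mt-Co1 and mt-Nd6 in each library of the 5 regions, with triangles for water and circles for fentanyl libraries. mt-Rnr1 and mt-Rnr2 are lowest in VBT, at means of 1543 and 3162 CPM, whereas mt-Nd6 has its lowest mean in VTA at 72.7 CPM.

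Across the 10 pairs of regions, 25 members could be tested. The number called ran from 7 for VTA against PrL, where 75.8% of all genes tested were called, to 17 for VBT against NAc, where 75.9% were called. It was 11 for VTA against VBT (66.0% of all genes), 10 for VTA against S1 (74.0%), 13 for VTA against NAc (75.4%) and 13 for VBT against S1 (74.3%). It was 12 for VBT against PrL (76.1%), 10 for S1 against PrL (52.2%), 14 for S1 against NAc (64.7%) and 15 for PrL against NAc (65.7%). In all 10 pairs the share of members called was below the share of all genes called. Over the 10 pairs there were 122 calls, and 65 with the water libraries alone, where 37.3% to 68.4% of all genes were called in a pair. Among the tRNAs the 3 most abundant were highest in NAc, where mt-Tp averaged 8.19 CPM, mt-Tw 5.25 and mt-Tq 5.92. mt-Ts1, a serine tRNA, was higher in VTA than in VBT by 1.80 (SE 0.39, adjusted p = 4.06e-05). Its level is uncertain, since it varied like the copied members (0 to 5.09 CPM, coefficient of variation 113%). It lies on the minus strand, overlaps the last 3 bases of mt-Co1 and otherwise falls in the 140 bases between mt-Co1 and mt-Co2, whose copies on chromosome 1 are also 140 bases apart. Among the copied members mt-Co3 was lower in VBT than in NAc by -2.64 and mt-Co2 by -2.36, and mt-Nd3 and mt-Nd4l were called in no pair.

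Fentanyl was compared with water within each region by edgeR's quasi-likelihood test, for females, for males, for their average and for the difference between the sexes. In VTA males 10 of the 24 members tested rose and none fell, and 22.0% of all 19822 genes tested were called there, 2174 higher and 2181 lower. The members that rose were the mRNAs mt-Co1, mt-Cytb, mt-Nd1, mt-Nd2 and mt-Nd5, both rRNAs, and the tRNAs mt-Ti, mt-Tm and mt-Tq. Fold changes of the mRNAs and rRNAs lay between 0.45 and 0.63 on the log2 scale, while the median of all genes tested was 0.00. The fentanyl and water groups did not overlap for 8 of the members, all higher with fentanyl, against 9.23% of all genes with that pattern.

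mt-Co1 in VTA males was at 18605, 16802, 18292, 18461 and 17344 CPM in the fentanyl libraries and at 12803, 12742, 11896 and 10673 CPM in the water libraries. Every fentanyl library exceeded every water library, and the log2 fold change was 0.61 (SE 0.09, edgeR adjusted p = 0.00218). mt-Nd1, of complex I, was at 5003, 4593, 5050.2, 5472 and 5023 CPM with fentanyl and at 3162, 3350.3, 3616 and 3229.7 with water. Its log2 fold change was 0.63 (SE 0.10, edgeR adjusted p = 0.00218), again without overlap. mt-Cytb, the complex III subunit, was at 7139, 6514, 7127, 7303 and 7057 CPM with fentanyl and at 4950.4, 5019.9, 5249 and 4715 with water. It rose by 0.54 (SE 0.08, edgeR adjusted p = 0.00218), and its groups did not overlap. mt-Rnr2 was at 5326, 4123, 4855, 3955 and 5151 CPM with fentanyl and at 3359, 3272, 3576 and 3227 with water. It rose by 0.52 (SE 0.09, edgeR adjusted p = 0.00222). The spread of mt-Rnr2 among fentanyl libraries was wider than among water libraries.

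mt-Nd2 and mt-Nd5 rose by 0.45 and 0.50 (edgeR adjusted p = 0.0023 and 0.00227), and mt-Rnr1 by 0.49 (edgeR adjusted p = 0.00349), each without overlap between the groups. The tRNAs that rose were scarce. mt-Tq was at 4.74, 4.25, 5.68, 6.08 and 5.19 CPM with fentanyl and at 3.02, 3.51, 3.87 and 4.35 with water. It rose by 0.54 (SE 0.14, edgeR adjusted p = 0.0115). The groups overlapped at 1 library each, since the lowest fentanyl library was under the highest water library. mt-Tm, the methionine tRNA, was at 1.22, 0.594, 1.17, 1.10 and 0.468 CPM with fentanyl and at 0.321, 0.536, 0.519 and 0.280 with water (1.18, SE 0.33, edgeR adjusted p = 0.0156). mt-Ti, the isoleucine tRNA, was at 0.481, 0.281, 0.559, 0.341 and 0.234 CPM with fentanyl and at 0.148, 0.208, 0.118 and 0.0841 with water (1.47, SE 0.48, edgeR adjusted p = 0.0321). Both are under 2 CPM in all of these libraries, and alternative fits called mt-Tm in 23 of 27 and mt-Ti in 16 of 24. mt-Ti, mt-Tq and mt-Tm stand next to each other between mt-Nd1 and mt-Nd2, with mt-Tq on the other strand.

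Other members did not pass the test in VTA males. mt-Nd4 had a log2 fold change of 0.41 (edgeR adjusted p = 0.0977) and mt-Nd6 of -0.24 (adjusted p = 0.174). mt-Tp had 0.14 and mt-Tw -0.27 (adjusted p = 0.25). The copied members and mt-Atp8 had values from -1.37 to -0.90 with none called. mt-Co2 was at 912, 532, 2362, 879 and 1891 CPM with fentanyl and at 4772, 3258, 1738 and 1331 with water, so the groups overlapped and the standard error was 1.10 around a log2 fold change of -1.05. mt-Co2 is 1 of the members whose level is given as uncertain.

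In VTA females no member and no gene was called by edgeR's quasi-likelihood test (0% of all genes), with 8 of 24 members and 2518 genes (12.7%) at an unadjusted p under 0.05. mt-Co1 was at 17173, 17197, 17324, 17231 and 17006 CPM with fentanyl and at 15723, 15136, 15636, 11636 and 12866 with water. The groups did not overlap, and the log2 fold change was 0.26. mt-Rnr2 had the smallest p, with 4549, 4572, 4404, 4631 and 4451 CPM with fentanyl against 3803, 4043, 4107, 3392 and 3139 with water. Its log2 fold change was 0.28 (SE 0.08, edgeR adjusted p = 0.277). mt-Cytb and mt-Nd1 were also separated, with 0.23 each, so 4 members had groups without overlap, higher with fentanyl, against 1.02% of all genes. The fentanyl females lay within a narrow band, and the water females fell into 3 libraries close to them and 2 well below. mt-Nd4 and mt-Nd6 were near 0 (0.00 and -0.01), and the copied members ran from -1.77 to -1.37.

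**Figure D4:**
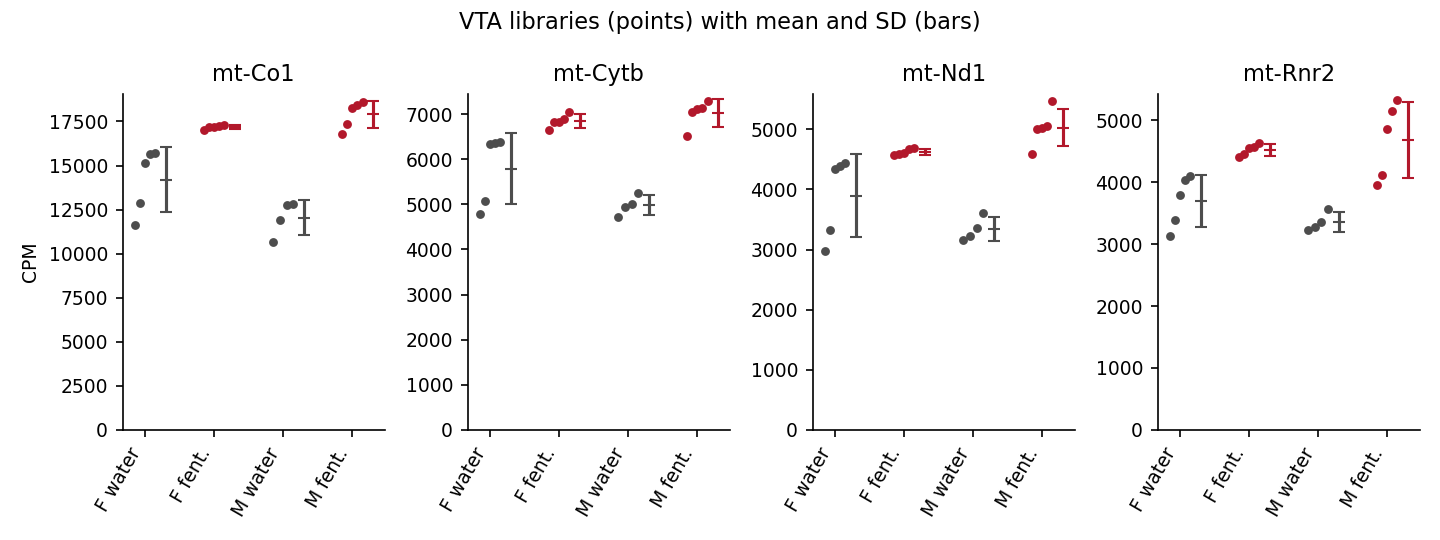
CPM of mt-Co1, mt-Cytb, mt-Nd1 and mt-Rnr2 in VTA libraries by sex and treatment, with the mean and SD beside the points. Fentanyl libraries (red) lie above the water libraries (grey) of the same sex in all 4 panels. In female water, 2 of the 5 libraries lie apart from the other 3, as for mt-Co1 at 11636 and 12866 CPM.

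Averaged over the sexes in VTA, 11 members rose and 1 fell, where 23.1% of all genes were called. The copied members were not called in that fit, although the replicate block called mt-Nd4l. Their place in the balance rested on 1 library: without female fentanyl 5, which had the highest share of them in its group, 15 members were called. Then mt-Co2 (-2.24), mt-Co3 (-2.11), mt-Atp6 (-2.41), mt-Nd4l (-2.05) and mt-Atp8 (-2.22) also fell, with edgeR adjusted p from 0.0139 to 0.0365. mt-Co1 rose by 0.44 (SE 0.06), mt-Nd1 by 0.43, mt-Rnr2 by 0.40, mt-Cytb by 0.38, mt-Rnr1 by 0.36, mt-Nd5 by 0.34 and mt-Nd2 by 0.31 on the log2 scale. mt-Tt, the threonine tRNA, joined mt-Ti, mt-Tm and mt-Tq among those that rose, with 0.55 (edgeR adjusted p = 0.0482). The calls of mt-Tt and mt-Ti were fragile: with single libraries left out, mt-Tt was called in 4 of 19 fits and mt-Ti in 7 of the 17 that tested it, and neither was called with the replicate block, with offsets for GC content or with no filter. The CPM of mt-Tt was 1.48, 1.82, 1.56, 1.28 and 1.57 in fentanyl females against 1.52, 1.21, 1.17, 0.875 and 1.34 in water females, and 2.56, 1.25, 2.68, 2.62 and 1.54 in fentanyl males against 1.41, 1.82, 1.28 and 0.589 in water males. mt-Tw fell by 0.36 (edgeR adjusted p = 0.0257), with 3.89, 4.07, 2.83, 2.41 and 3.28 CPM in fentanyl females against 3.44, 4.35, 4.29, 5.10 and 5.06 in water females, and 5.19, 4.75, 3.41, 4.45 and 4.92 in fentanyl males against 5.71, 6.01, 5.01 and 5.75 in water males. Both tRNAs overlapped between treatments in each sex. No member and no gene passed the test of the difference between the sexes (0% called), with 6 of 24 members and 11.4% of all genes at an unadjusted p under 0.05. The smallest p of a member in that test was that of mt-Nd1, whose male minus female difference was 0.40 (SE 0.14, edgeR adjusted p = 0.42).

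A property of the libraries moved with these values in VTA. In each library, Spearman's rho across nuclear genes between a gene's GC content and its level relative to the region mean was computed as a measure of how strongly GC-rich genes were favoured. It exceeded 0.5 in 6 of the 19 VTA libraries, which were the 4 water males and water females 4 and 5. Those 6 had mt-Co1 between 10673 and 12866 CPM, mt-Cytb between 4715 and 5249, and mt-Nd1 between 2983 and 3616. The other 13, with rho between -0.545 and 0.0169, had mt-Co1 between 15136 and 18605 CPM. Among these 13 the 3 water females had 15136 to 15723 CPM of mt-Co1 and the 10 fentanyl libraries 16802 to 18605. The rRNA and protein members have a GC content of 31.9% to 41.1%, and the genes tested in VTA have a median of 49.2%. With offsets for GC content, 3 members were called in VTA males, mt-Co1 at 0.32, mt-Nd1 at 0.30 and mt-Cytb at 0.23, and the calls over all genes dropped from 4355 to 789 (3.98%). The values of the others that had risen were then 0.09 for mt-Nd2, 0.16 for mt-Nd5, 0.11 for mt-Rnr1, 0.14 for mt-Rnr2 and 0.19 for mt-Tq. mt-Tm and mt-Ti kept larger values, 1.02 and 0.98, with edgeR adjusted p of 0.0905 and 0.216. A second property, rho between a gene's length and its relative level, also separated the VTA males, at -0.233 to -0.147 with water and -0.0242 to 0.196 with fentanyl. Its part in the differences was not tested. With VTA male water 3 kept in the fit, 6 members and 42 genes (0.216%) were called.

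Choroid plexus markers also differed among VTA libraries. The summed level of the 5 markers ran from 13.2 to 1014 CPM in water males, from 13.3 to 385 in water females, from 17.1 to 24.3 in fentanyl males and from 20.8 to 63.6 in fentanyl females, and the VTA markers ran from 335 to 1240 CPM in fentanyl males and from 864 to 1499 in water males. Their part in the differences between treatments was not tested.

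In the other 4 regions no member passed edgeR's test in females, males, the average or the difference between the sexes. All genes called were 0% in VBT, 0.142% in S1 females (0.127% higher and 0.0152% lower) and 1.03% in the S1 average (0.815% higher and 0.213% lower), 0.0210% in PrL females and 0.697% in the PrL average, and 0.662% in NAc males, with 0% in the other contrasts of these regions. With simulated counts for the males of these regions, 42 to 56 of 100 genes changed 1.5-fold were recovered.

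NAc males came nearest to the pattern of VTA males. Cortex markers summed to between 139 and 823 CPM in NAc fentanyl males and to between 426 and 764 in NAc water males, and their part in the values below was not tested. The member with the smallest p there was mt-Rnr1, at 3407, 3036, 2817, 2714 and 2837 CPM with fentanyl and 2437, 2501, 2297, 2034 and 2135 with water. The groups did not overlap, and the log2 fold change was 0.41 (SE 0.10, edgeR adjusted p = 0.0536). Groups that did not overlap, higher with fentanyl, were found for mt-Rnr1, mt-Rnr2 (0.35), mt-Nd1 (0.43) and mt-Tw (0.56), against 1.29% of all genes. Of the 23 members tested, 9 were at an unadjusted p under 0.05, as were 17.6% of all genes, and none passed the adjusted threshold. The 7 protein members without a near-identical copy ran from 0.11 to 0.45 in NAc males, and the same members ran from 0.03 to 0.34 in NAc females. NAc male water 4 stood apart, with 2.55% of counts in this class against 3.87% to 4.73% in the other water males. Without it the 7 members ran from -0.03 to 0.34 in NAc males, and mt-Rnr1 was at 0.36. In the average of the sexes mt-Rnr2 had the smallest p (0.25, SE 0.07, edgeR adjusted p = 0.224), with 4727, 5232, 4621, 4328 and 5498 CPM in fentanyl females, 4359, 5256, 3923, 4417 and 4089.7 in water females, 5975, 5872, 5291, 5480.3 and 5396 in fentanyl males and 4744, 4827, 4596, 3915 and 4339 in water males. The male groups did not overlap, and the female groups did. In NAc females mt-Tq had the smallest p (0.37, SE 0.19, edgeR adjusted p = 0.558), with 5.39, 5.86, 4.67, 5.69 and 7.33 CPM against 3.76, 6.08, 4.02, 3.95 and 4.63, which overlap. For the difference between the sexes it was mt-Tt (0.98, SE 0.32, edgeR adjusted p = 0.143), with 2.44, 1.80, 2.09, 2.49 and 2.26 CPM in fentanyl males against 1.92, 1.58, 1.27, 1.13 and 0.948 in water males, and 1.28, 0.849, 1.26, 1.47 and 1.47 in fentanyl females against 1.01, 1.79, 1.82, 1.17 and 1.76 in water females.

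In S1 a tRNA had the smallest p in females, in males and in their average. mt-Tp in females was at 7.43, 6.31, 9.02, 7.54 and 7.65 CPM with fentanyl and 5.29, 6.54, 5.36, 5.24 and 4.62 with water (0.48, SE 0.13, edgeR adjusted p = 0.114). The groups overlapped at 1 library each. mt-Tw, in the average of the sexes, was at 3.01, 3.53, 4.14, 4.0 and 3.80 CPM in fentanyl females against 1.80, 2.20, 1.98, 3.29 and 1.78 in water females, and at 4.09, 4.37, 3.39, 2.63 and 1.69 in fentanyl males against 2.45, 2.17, 1.79 and 2.81 in water males (0.62, SE 0.16, edgeR adjusted p = 0.0568). In the VTA average mt-Tw fell. mt-Nd6 was the only member of S1 females whose groups did not overlap, against 2.81% of all genes higher in this way, at 95.3, 96.4, 109, 105 and 99 CPM with fentanyl and 61.1, 79.9, 78.6, 83.3 and 71.2 with water (0.42, SE 0.17, edgeR adjusted p = 0.28). mt-Tq had the smallest p in S1 males (0.66, SE 0.26, edgeR adjusted p = 0.652), with 3.02, 5.04, 3.67, 3.77 and 2.41 CPM against 1.39, 2.73, 2.62 and 2.32. For the difference between the sexes in S1 it was mt-Nd5 (0.27, edgeR adjusted p = 0.957), with 4712, 6012, 4002, 4858 and 4261 CPM in fentanyl males, 4305, 4134, 3674 and 5396 in water males, 4347, 3964, 5687, 4963 and 4734 in fentanyl females and 4394, 5544, 6007, 5459.9 and 4313 in water females. These groups overlapped in both sexes.

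In VBT the mRNAs and rRNAs lay close to 0. The 7 protein members without a near-identical copy ran from -0.19 to 0.09 in females and from -0.10 to -0.01 in males, and the rRNAs from 0.00 to 0.01 and from -0.10 to -0.02. mt-Tq had the smallest p in females (0.54, SE 0.23, edgeR adjusted p = 0.549), at 3.49, 3.79, 3.38, 4.65 and 4.17 CPM with fentanyl and 1.61, 3.32, 1.76, 2.70 and 3.96 with water. mt-Ts1 had it in males (-1.61, SE 0.76, edgeR adjusted p = 0.56), at 0.0253, 0.0224, 0, 0.0302 and 0.662 CPM against 0.309, 0.315, 0.368, 0.438 and 0.608. Of the fentanyl males, 4 were near 0 and the fifth was above every water male. mt-Ts1 also led the average (-1.40, edgeR adjusted p = 0.508), with 0.129, 0.0896, 0.252, 0.174 and 0.0960 CPM in fentanyl females against 0.0731, 0.224, 0.413, 0.573 and 0.412 in water females. For the difference between the sexes mt-Tt had the smallest p (-0.49, edgeR adjusted p = 0.618), at 0.936, 0.829, 0.884, 1.15 and 0.852 CPM in fentanyl males, 1.13, 0.973, 1.11, 1.39 and 1.16 in water males, 0.800, 1.28, 0.833, 1.02 and 0.999 in fentanyl females and 0.902, 1.17, 0.847, 0.764 and 0.695 in water females. Each of these sets overlapped. In the fentanyl males the summed share of the copied members and mt-Atp8 was 0.00741%, 0.00398%, 0.00421%, 0.00422% and 0.401%, so the library with the highest mt-Ts1 was also the highest for them.

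In PrL no member came near the threshold. The same 7 protein members ran from -0.15 to 0.09 in females and from -0.09 to 0.14 in males. The smallest p in females was that of mt-Atp6, a copied member, at 238, 388, 12.3, 12 and 32.4 CPM with fentanyl and 594, 309.9, 309.7, 505 and 2834 with water (-2.68, SE 1.48, edgeR adjusted p = 0.578). Of the 5 fentanyl females 3 were under 50 CPM, and no water female was. In males it was mt-Tm (0.47, SE 0.31, edgeR adjusted p = 0.545), at 0.639, 0.585, 0.641, 0.971 and 0.345 CPM against 0.418, 0.652, 0.638, 0.309 and 0.318. mt-Tm also led the average (0.38, edgeR adjusted p = 0.359), with 0.647, 0.553, 0.721, 0.592 and 0.469 CPM in fentanyl females against 0.673, 0.767, 0.385, 0.415 and 0.254 in water females. For the difference between the sexes it was mt-Nd1 (-0.16, edgeR adjusted p = 0.9995), at 3854, 3867, 3764, 4562 and 4637 CPM in fentanyl males, 3880.3, 4081, 4880.2, 4635 and 4619 in water males, 4289, 4208, 4630.2, 4352 and 4296 in fentanyl females and 3911, 4546, 4073, 3843 and 4511 in water females. All of these groups overlapped.

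**Figure D5:**
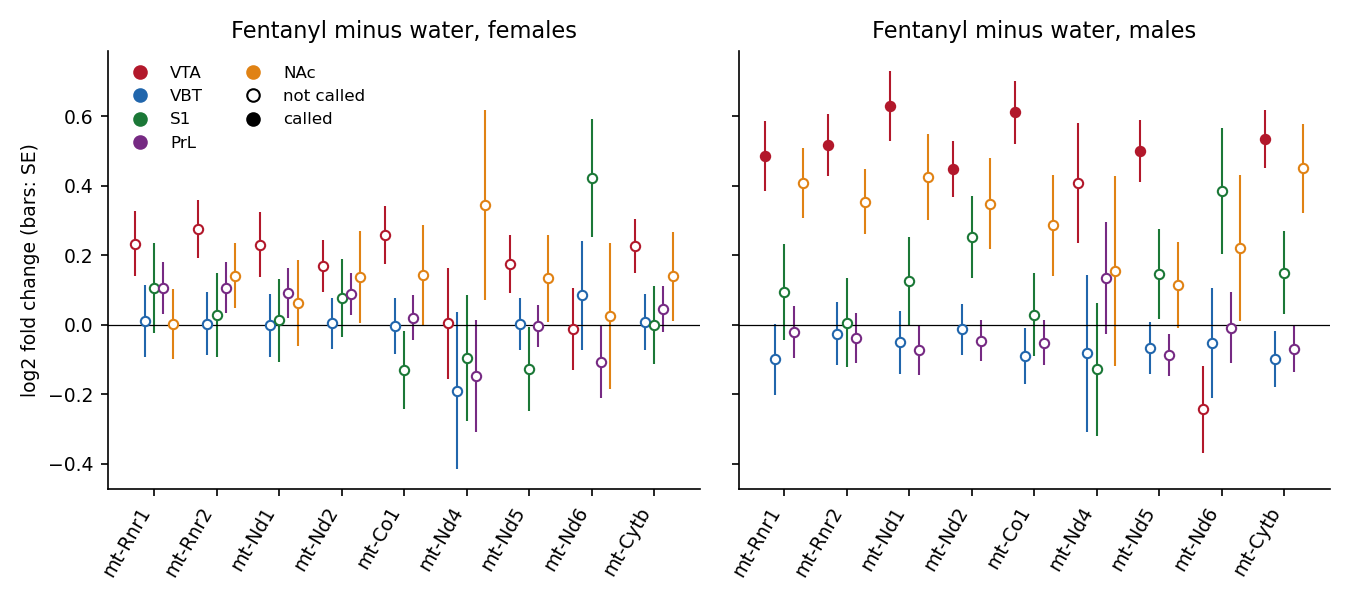
Log2 fold change of fentanyl against water with its SE for the rRNA members and the 7 protein members without a near-identical copy, in females (left) and males (right) of each region. Filled points passed the adjusted threshold of edgeR's test, which only VTA males did, at 0.45 to 0.63. In NAc the 7 protein members lie above 0, at 0.11 to 0.45 in males and 0.03 to 0.34 in females. In S1 females mt-Nd6 is at 0.42.

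The nuclear partners of the members were followed through 2 lists. The first held 75 nuclear genes for subunits of oxidative phosphorylation, of which 73 were tested. In VTA males 5 of these rose and 30 fell, with a median of -0.21 on the log2 scale against 0.00 over all genes tested, of which 11.0% rose and 11.0% fell, while the mitochondrial mRNAs and rRNAs that passed the test all rose. By complex, 16 of 35 tested genes of complex I fell and 3 rose, none of 4 passed in complex II, 3 of 9 fell and 1 rose in complex III, 6 of 11 fell in complex IV, and 5 of 14 fell and 1 rose in complex V. The smallest p belonged to Ndufa7 (-0.57) and Ndufv3 (-0.52) of complex I, Uqcr11 (-1.07) of complex III and Ndufb7 (-0.78) of complex I. In the VTA average 3 rose and 41 fell, against 2198 and 2382 of all 19822 genes. In VTA females none passed, with 38 at an unadjusted p under 0.05, as were 12.7% of all genes. The nuclear subunit genes have a GC content of 37.0% to 63.3% (median 50.2%), and with offsets for GC content 2 rose and 19 fell in VTA males, against 1.35% and 2.63% of all genes in that fit. With single libraries left out, 2 to 6 rose and 21 to 35 fell there, and 2 rose without male fentanyl 1, male fentanyl 4, male water 4 or male water 5 and 3 without male water 1. The length trend given above also separates these groups. With VTA male water 3 kept, none was called.

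In S1 the nuclear subunits had the opposite sign. In the average of the sexes 27 of the 73 rose and none fell, against 0.815% and 0.213% of all genes, among them Cox7b (0.45), Ndufa7 (0.46), Ndufa5 (0.49) and Ndufb10 (0.33), and no mitochondrial member passed the test. That count rested on single libraries: it was 4 without male water 4, 10 without female water 3, 10 without male water 5, 16 without male fentanyl 3, 17 without female fentanyl 2, male fentanyl 2 or female water 4, and 38 without male fentanyl 5. In S1 females Ndufb10 (0.43), Atp5j (0.44) and Ndufa13 (0.49) rose, against 0.127% of all genes, and with the replicate block 10 did, against 0.208%. Each was called in 7 of the 19 fits without 1 library, and the count ran from 0 to 32. It was 0 without any water female, without any fentanyl female except 3 (then 15), and without male fentanyl 2, male water 4 or male water 5, and it was 5 without male fentanyl 1, 17 without male fentanyl 3 and 32 without male fentanyl 5. Properties of the libraries moved with these values. In S1 females the length trend was -0.341 to -0.0157 with fentanyl and 0.0251 to 0.273 with water, without overlap, and the GC trend averaged 0.169 with fentanyl and -0.226 with water. With offsets for GC content 26 rose and 1 fell in the S1 average, against 0.846% and 0.223% of all genes, and 3 rose in S1 females, against 0.0962%. The part of the length trend was not tested. In NAc males Uqcrb (0.46), Ndufb10 (0.37) and Atp5h (0.37) rose, against 0.421% of all genes, beside mt-Rnr1 at 0.41 with an adjusted p of 0.0536. None of the 73 was called there with the replicate block, which left 2 genes called in all. The length trend ran from -0.364 to -0.000108 (mean -0.209) in the fentanyl males of NAc and from -0.181 to 0.281 (mean 0.114) in the water males, and its part was not tested. The count of 3 ran from 0 to 13 with single libraries left out, with 0 without male fentanyl 2 or 3 or any of male water 1 to 4, 1 without female fentanyl 2 or 3, 5 without male water 5, 6 without male fentanyl 1, 9 without female water 2 or 3, 11 without male fentanyl 5 and 13 without female fentanyl 5.

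The second list held 39 nuclear genes, of which 38 were tested. It was drawn up for transcription of mitochondrial DNA and for the processing and decay of its RNAs. It also holds genes with other roles, such as Polg for the synthesis of mitochondrial DNA and Gabpa for nuclear genes of mitochondria. In VTA males 15 rose and 4 fell, where 11.0% of all genes rose and 11.0% fell. With single libraries left out 11 to 17 rose and 2 to 6 fell, with 2 falling without male water 2 or male water 4. Those that rose with the smallest p were Mtpap (0.54), the mitochondrial poly(A) polymerase, Gabpa (0.41), a transcription factor for nuclear genes of mitochondria, Trmt10c (0.51), a subunit of the RNase that cuts tRNAs from the precursor, and Fastkd2 (0.41), an RNA-binding protein of mitochondrial RNA granules. Those that fell were Polrmt (-0.43), the mitochondrial RNA polymerase, Polg (-0.24), the catalytic subunit of the mitochondrial DNA polymerase, Slirp (-0.43), which stabilises mitochondrial mRNAs, and Fastk (-0.34), which is needed for mt-Nd6 mRNA. In the VTA average 15 rose and 6 fell, against 2198 and 2382 of all 19822 genes. With offsets for GC content 2 rose and 3 fell in VTA males, against 3.98% of all genes called, and with VTA male water 3 kept none was called. In NAc males Slirp rose by 0.51, the only gene of this list called outside VTA, and it was called in 12 of 20 fits without 1 library.

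The nuclear copies themselves were tested as genes of their own. Of 8 tested, 3 rose in VTA males: Gm28439 (0.88), Gm13340 (0.91) and Gm10222 (0.73), against 11.0% of all genes. That count ran from 2 to 5 with single libraries left out, and was 5 without female fentanyl 1. In the VTA average 5 rose, against 11.1% of all genes, namely Gm28437 (1.71), Gm10925 (1.59), Gm29216 (1.42), Gm13340 (0.67) and Gm28439 (0.61). Gm29216 and Gm13340 copy mt-Co1, which also rose, by 0.44. Gm28437, Gm10925 and Gm28439 copy mt-Co3, mt-Atp6 and mt-Nd4, which had values of -1.13, -1.42 and 0.21 and were not called, although mt-Co3 and mt-Atp6 fell without female fentanyl 5. The sizes for Gm28437 and Gm10925 rested on VTA female fentanyl 1, which had 369 and 433 CPM of them. Without it the fentanyl means went from 54.2 to 19.3 CPM and from 64.8 to 23.9 CPM, and the log2 fold changes were 0.62 and 0.55. That of Gm29216 was then 0.76. With single libraries left out, Gm13340 and Gm28439 were called in all 19 fits, Gm29216 in 13, Gm28437 in 10 and Gm10925 in 6, and the count in the average ran from 2 to 5. Reads from such a copy and from its member cannot be told apart where the sequences are equal. With the counts of the copies added to the members, the same 10 members were called in VTA males.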

How the data were processed

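Per the labels' protocols, Trizol and a column served for extraction, and 10 ng of RNA went into each SMART-Seq v4 library. The values are raw counts per gene as deposited by the authors, from HTSeq on GRCm38 per the submitters' processing notes; aligner, annotation and strand setting are not given in the sources used here. Gene names, positions and sequences came from GENCODE M21, which held 55154 of the identifiers. Copies of members were sought with BLAST 2.17.0 among annotated transcripts only, and matches on a chromosome that holds none of the copies named were left out. Each region was fitted alone, and all 98 libraries together for pairs of regions, with edgeR 4.0.16 in R 4.3.3 (filterByExpr, TMM, robust quasi-likelihood F-test, Benjamini-Hochberg adjustment over all genes tested). An adjusted p under 0.05 makes a call, and "rose" or "fell" is used of called genes only. SE came from the F statistic. CPM was scaled to the total over genes. The script was tested on simulated data. The library with under 10000 genes was left out. Named were all protein and rRNA members, the 3 tRNAs with the highest mean, called members, and the member with the smallest p where none was called. Alternatives were DESeq2 1.42.0 (Wald test, or its size factors), no filter, nuclear genes for scaling, offsets for GC content, the number as a block and libraries left out. Members and lists were chosen with earlier results of these data known.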

Additional observations from a re-analysis of the deposited data

Results flagged for a closer look

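Within each of the 20 groups, the share of counts of 4 classes of members was checked for a library far from the others, and 7 of 80 checks found one. The check is set to flag about 1 in 20 when values are normally distributed. Its rate for shares as skewed as those of the copied members was not tested, so the number found cannot be set against chance. In 5 of the 7 the class was the copied members with mt-Atp8, whose values differ widely between libraries. VTA female fentanyl 5 had 0.779% of its counts in this class, against 0.00537% to 0.139% in the other 4 libraries. VBT male fentanyl 5 had 0.401%, against 0.00398% to 0.00741%. PrL female water 5 had 0.652%, against 0.151% to 0.294%, and PrL male water 1 had 1.67%, against 0.00886% to 0.164%. NAc female water 4 had 1.85%, against 0.00609% to 0.458%. Among the 7 other protein members, S1 male fentanyl 2 had 4.96%, against 3.56% to 3.93%. Among the tRNA members, NAc male fentanyl 5 had 0.00214%, below the 0.00313% to 0.00346% of its group, and it is also the library whose omission let 5 members be called in NAc males.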

How the results depend on the processing

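No called member changed sign under the alternatives run, and of 175 alternatives to the 13 counts of called members above 0, 159 stayed within 1.5 times the count reported. The other 18 counts were 0, and 468 of their 482 alternatives were too. The lists of nuclear genes are not in that tally, and the balance of the 38 tested genes of the second list in VTA males went from 15 up and 4 down to 2 and 3 with offsets for GC content. The exceptions were these. In VTA males 6 members were called with VTA male water 3 kept and 3 with offsets for GC content, and in the VTA average 6 (0.309% of all genes) and 4 (4.61%). With the DESeq2 Wald test 2 were called in S1 females (2.04% of all genes), 3 in the S1 average (3.27%), 6 in NAc males (4.74%) and 1 in the NAc average (0.554%), where edgeR called none. Offsets for GC content gave 2 in the S1 average (1.07%) and 1 in NAc males (1.76%), and no filter gave 1 in the S1 average (0.605%). With the water libraries alone the pairs gave 5 for VTA against VBT, 3 for VBT against PrL, 10 for VBT against NAc, 2 for S1 against PrL, 8 for S1 against NAc and 3 for PrL against NAc, 65 in all. The shares of all genes in these pairs were 52.5%, 68.4%, 67.8%, 37.3%, 53.3% and 50.3%. The replicate block gave 9 for S1 against NAc (67.2% of all genes). It changed the VTA counts less, to 9 in males (19.4%) and 11 in the average (21.2%). Same-numbered libraries correlated at -0.0588 to 0.0270 on average within regions. Across regions the mean was 0.0540 over 192 pairs, against -0.0134 for other numbers, and the pairs ran from -0.242 to 0.390, so these correlations do not show that the numbers pair the libraries. The cause of these shifts was not tested.

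With single libraries left out in turn, VTA males gave 8 to 12 calls, the VTA average 9 to 15, the VBT average 0 to 1 (mt-Ts1, without male fentanyl 5), the S1 average 0 to 2 and NAc males 0 to 5. The S1 calls came without female water 4 (mt-Tw) and without male fentanyl 5 (mt-Tp and mt-Tw). Without NAc male fentanyl 5 there were 5 calls, without female water 3 there were 3, without female water 2 there were 2, and without female fentanyl 5 there was 1. In the pairs all libraries of 1 replicate number were left out at a time, in 5 fits, which gave 9 to 11 for VTA against VBT and against S1, 6 to 8 for VTA against PrL, 12 to 17 for VTA against NAc, 12 to 16 for VBT against S1, 7 to 15 for VBT against PrL, 16 to 20 for VBT against NAc, 6 to 9 for S1 against PrL, 9 to 17 for S1 against NAc and 7 to 17 for PrL against NAc, 101 to 137 in all.

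In VTA males mt-Co1 (0.32 to 0.66), mt-Cytb (0.23 to 0.57) and mt-Nd1 (0.30 to 0.67) were called under all 27 alternatives. mt-Nd2, mt-Nd5 and mt-Rnr2 were called under 26, mt-Rnr1 and mt-Tq under 25, mt-Tm under 23 and mt-Ti under 16 of 24, with lowest values, under offsets for GC content, of 0.09 for mt-Nd2, 0.16 for mt-Nd5, 0.14 for mt-Rnr2 and 0.11 for mt-Rnr1. Per 100 nuclear counts the share of all members moved by more than its SD in VBT female fentanyl (3.95) and PrL female fentanyl (4.52). Of the 22 tRNAs, 12 had 28 counts or fewer over all libraries, which limits what their values show.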

Other observations

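The copied members did not always move as a block. S1 male water 4 had 23.4 CPM of mt-Co2 and 12.3 of mt-Atp6 but 1195 of mt-Co3. NAc female water 5 had 1018 CPM of mt-Co2 but 14.6 of mt-Co3, and NAc male fentanyl 2 had 3070 CPM of mt-Co2 and 9338 of mt-Co3. PrL female water 5 had 2834 CPM of mt-Atp6 and 1646 of mt-Co2, the reverse of the usual order. These libraries were picked after their values were seen. VTA male water 3, left out of the fits, had 13218 CPM of mt-Co1 and 18.2 of mt-Co2.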
